A study of Mus musculus with 21 samples.

Results

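Trametinib-resistant murine pancreatic cancer cells were compared with the parental cells from which they were raised, across all genes measured by RNA sequencing. The 12 samples, of 21 in the series, were taken by their titles as the 6 resistant and the 6 parental cultures of lines #3, #4, #6, #7, #9 and #10, written here as lines 3, 4, 6, 7, 9 and 10, so that each line gave 1 matched pair. All lines were primary low-passage cultures from pancreatic tumours of mice carrying Ptf1awt/Cre and Trp53loxP/loxP among their alleles, and both states of a line share their alleles. In this model Cre driven from the Ptf1a locus deletes Trp53 in cells of the pancreatic lineage. The parental cells were naive to the drug. The resistant cells had been brought up through rising doses of trametinib, an allosteric inhibitor of the kinases MEK1 and MEK2, until they grew at 100 times the IC50 of their line, and were kept in drug. Clonal outgrowth from the parental population was described for lines 3 and 9, whose genomes were sequenced, and the other lines were not examined for it. Each difference is therefore between drug-treated, selected cells and untreated cells, and the effect of the drug at harvest and the change acquired during selection cannot be told apart. The 9 other samples, from resistant cultures after drug withdrawal, entered only the alternative fits.

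RAS proteins signal through RAF, MEK and ERK. Active ERK drives the expression of its own brakes, the DUSP phosphatases and the Sprouty and SPRED proteins, together with ETS factors of the PEA3 group and immediate-early factors such as FOS and EGR1, so that these transcripts are commonly read as the output of the pathway. Pancreatic carcinoma cells also range between an epithelial state, with cell junctions, mucins and foregut transcription factors, and a mesenchymal state, with matrix proteins and loss of E-cadherin. Epithelial-mesenchymal transition (EMT) is the passage from the former to the latter.

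Levels are given as normalized counts, that is, estimated reads per gene after DESeq2 normalization. Each of the 12 samples summed to between 31910000 and 37120000 normalized counts. From the spacing of low values, 3 reads were worth 2.31 to 4.07 normalized counts depending on the sample, and levels at or below that are near the limit of detection. Trp53 lay between 288 and 391 in parental and between 178 and 367 in resistant cells, and a value for the whole gene does not separate the deleted exons from the rest. Of 10 markers of pancreatic duct epithelium, 9 passed the filter on low values, and Epcam was listed at 0 in all 12 samples. Summed levels of these markers ran from 18463 to 297945 in parental and from 1824 to 212662 in resistant cells. Parental line 9 stood apart from the other parental lines in Cdh1 (816 against 26491 to 53229), Hnf4a (50 against 8546 to 15463) and Krt19 (3074 against 31733 to 55658). Lymphocyte markers summed to at most 45.6 and endocrine markers to at most 62.6 in any sample. Nothing in the labels names separate cultures within a line, so the spread below is that between lines.

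Resistance went with a broad change in expression (the plot of difference against level). Of 17720 genes tested, 743 (4.19%) were called, which means that the log2 fold change, the mean over 6 lines of the resistant minus parental difference on the log2(normalized count + 1) scale, was above 1 or below -1 with an adjusted p below 0.01 in a paired limma fit. These are bulk cultures, in which fewer cells of a type and less RNA per cell cannot be told apart. Of the called genes, 332 (1.87%) were higher and 411 (2.32%) lower in resistant cells. The median log2 fold change over all genes tested was -0.01. Among called genes, 740 moved the same way in 6 of 6 lines, an agreement that the paired threshold itself favours. The called falls were larger than the called rises, with a median log2 fold change of -4.12 against 2.88, and 213 falls against 120 rises were over 16-fold. In 536 genes (3.02%) every resistant sample lay above every parental one and in 588 genes (3.32%) below. The number of calls depended on which line was left out. It was 174 without line 3, 185 without line 4, 113 without line 6 and 158 without line 10, but 622 without line 7 and 1051 without line 9. The direction was the same in all 6 lines for many more genes than were called, 9.55% of those tested being higher and 9.94% lower in 6 of 6 lines. Without the pairing by line, 890 genes (5.02%) were called in the 12 samples and 1027 (5.8%) in a fit of all 21 samples in 4 states with no block, and with the block over all 21 samples 2005 (11.3%) were called. A core of 95 genes, 31 higher and 64 lower, was called in the full fit and without each line in turn, and is called the leave-one-out core below. Of the 121 called genes named by the rule given under the processing, 38 belonged to it. The other 83 all missed the threshold without line 6, the highest of their adjusted p-values over the 6 leave-outs being 0.0111 to 0.0407, and none changed direction. Among them Fos, Lama2, Itga6, Ltbp2, Axin2, Dll1, Elovl6, Tfeb and Hmox1 were not called whichever line was left out.

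**Figure D1:**
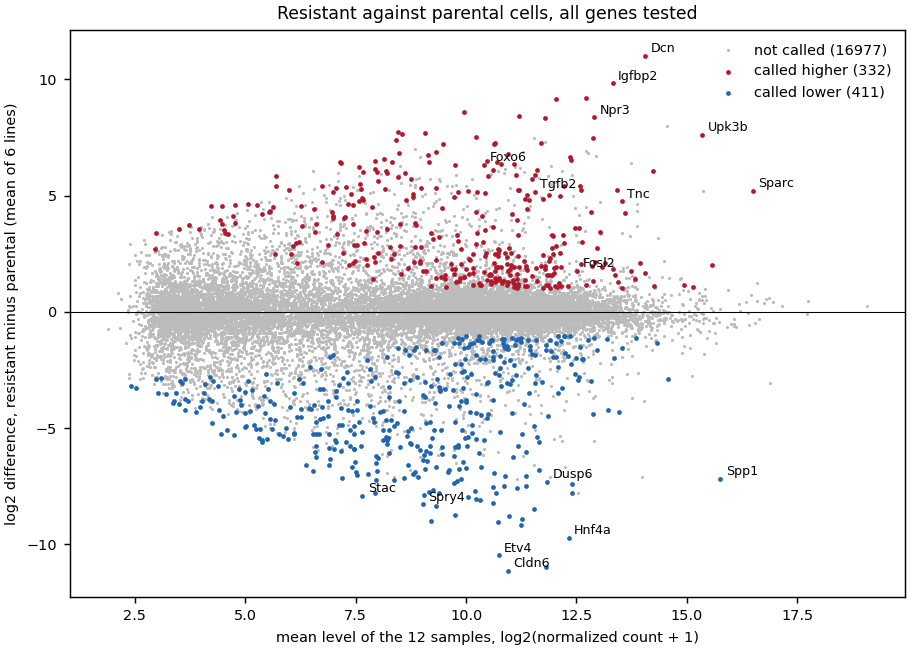
Each point is 1 of 17720 genes. The horizontal axis is the log2 of the mean normalized count of the 12 samples plus 1, and the vertical axis is the log2 fold change, resistant minus parental, as a mean over 6 lines. Red points are the 332 genes called higher, blue points the 411 called lower and grey points the rest. The falls reach -11.14 (Cldn6) and the rises 11 (Dcn).

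Many of the transcripts that report ERK activity fell in resistant cells. Of 18 genes of ERK output and feedback tested, 9 were called lower and none higher, all 18 had a negative log2 fold change, and in 11 every resistant sample lay below every parental one. Over all genes tested, 2.32% were called lower and 3.32% had such a separation. These shares, with 1.87% called higher, are the background for the counts of each list below. The median over the list was -2.89, and the median in each line ran from -2.02 in line 7 to -5.65 in line 9. Between 5 and 10 members were called when 1 line was left out, the fewest without line 3, 4, 6 or 10. Etv4, Etv5, Spry4, Dusp6 and Phlda1 belonged to the leave-one-out core.

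Etv4 (chromosome 11, 101769742 to 101785371, mm10), a PEA3-group ETS factor, ranged from 1931 to 6573 (median 2913) in parental cells and from 0 to 4.58 (median 1.45) in resistant cells. The lowest parental sample was thus far above the highest resistant one. Its log2 fold change was -10.46 ± 0.48 (SE, adjusted p = 0.000231). Etv5, its close relative, went from 1561 to 3486 (median 2666) down to 1.06 to 18 (median 10.2), with a log2 fold change of -8.09 ± 0.45 (adjusted p = 0.00032). Spry4, a Sprouty inhibitor of receptor signalling, held 619 to 1378 in parental and at most 7.12 in resistant cells, a log2 fold change of -8.27 ± 0.44 (adjusted p = 0.000258). All 3 genes fell in every line, Etv5 by the least, at -6.36 in line 10.

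Dusp6 (chromosome 10, 99263231 to 99267489, mm10), the cytoplasmic ERK phosphatase, lay between 5249 and 9449 (median 6850) in parental cells and between 4.49 and 681 (median 43.4) in resistant cells. No resistant sample reached the parental range, and the highest was that of line 7. The log2 fold change was -7.31 ± 0.73 (adjusted p = 0.00188), from -3.79 in line 7 to -10.52 in line 9. Dusp4, a nuclear phosphatase of the same family, went from a median of 2749 to 11.6 (log2 fold change -7.80 ± 1.12, adjusted p = 0.00519). The brakes Spry2 (-3.89), Spred2 (-3.19) and Spred1 (-1.56) also fell with no overlap, as did Phlda1 (-3.12 ± 0.29, adjusted p = 0.00128), a pleckstrin-homology protein induced by growth factors. Ccnd1, cyclin D1, held 22345 to 27460 in parental and 863 to 10806 in resistant cells. It was lower in 6 of 6 lines without overlap, but its log2 fold change of -2.65 ± 0.48 had an adjusted p of 0.012 and was not called.

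Because these genes moved together, the 300 bases from 250 before to 50 after the start are printed for 5 of the 9 called members, as RefSeq gives them for the build GRCm38.p6. A promoter was used for 11724 of the 17720 genes tested, and those of Etv4, Dusp4, Phlda1 and Spry4 are not shown. Each sequence runs 5′ to 3′ along the strand of its gene, and capitals mark matches, on either strand, to AP1 (TGANTCA), the core of the cyclic AMP response element (TGACGTC), an ETS core (CCGGAA) or the CArG box bound by SRF. The windows are chr16:22439521-22439820 (minus strand) for Etv5, chr10:99262981-99263280 (plus) for Dusp6, chr14:105896770-105897069 (minus) for Spry2, chr11:19924192-19924491 (plus) for Spred2 and chr2:117120821-117121120 (plus) for Spred1.
Etv5: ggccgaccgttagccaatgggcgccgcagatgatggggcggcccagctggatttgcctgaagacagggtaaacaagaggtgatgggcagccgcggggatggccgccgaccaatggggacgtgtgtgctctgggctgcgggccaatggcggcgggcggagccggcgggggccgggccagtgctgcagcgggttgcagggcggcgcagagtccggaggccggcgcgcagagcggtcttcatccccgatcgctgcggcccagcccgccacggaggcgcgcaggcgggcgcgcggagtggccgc
Dusp6: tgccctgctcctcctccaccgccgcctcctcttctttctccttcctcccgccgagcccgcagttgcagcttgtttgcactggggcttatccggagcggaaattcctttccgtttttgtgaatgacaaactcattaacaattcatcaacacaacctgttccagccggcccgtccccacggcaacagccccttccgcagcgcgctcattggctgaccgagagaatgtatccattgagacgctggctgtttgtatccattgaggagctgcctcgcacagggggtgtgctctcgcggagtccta
Spry2: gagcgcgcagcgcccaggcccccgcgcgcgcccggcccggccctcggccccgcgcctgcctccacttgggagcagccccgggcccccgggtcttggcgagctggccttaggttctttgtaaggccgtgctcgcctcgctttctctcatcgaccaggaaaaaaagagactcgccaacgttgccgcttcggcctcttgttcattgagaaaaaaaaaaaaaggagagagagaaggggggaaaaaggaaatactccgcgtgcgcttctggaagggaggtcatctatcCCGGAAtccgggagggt
Spred2: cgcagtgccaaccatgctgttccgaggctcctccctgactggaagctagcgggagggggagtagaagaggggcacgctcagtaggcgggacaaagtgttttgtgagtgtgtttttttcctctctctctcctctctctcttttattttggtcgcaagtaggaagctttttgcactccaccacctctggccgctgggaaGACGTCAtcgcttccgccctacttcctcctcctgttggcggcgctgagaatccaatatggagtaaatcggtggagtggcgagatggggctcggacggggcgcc
Spred1: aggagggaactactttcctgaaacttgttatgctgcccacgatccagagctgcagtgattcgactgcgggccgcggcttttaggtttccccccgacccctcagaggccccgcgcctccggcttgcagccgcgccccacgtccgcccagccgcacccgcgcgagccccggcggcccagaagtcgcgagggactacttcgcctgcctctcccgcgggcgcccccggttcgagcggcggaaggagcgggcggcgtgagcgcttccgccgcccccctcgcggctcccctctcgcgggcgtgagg
The ETS core was present in Spry2, starting at base 284 of the window, and the response element core in Spred2, on the opposite strand, starting at base 198. No match was found in Etv5, Dusp6 or Spred1. Among promoters of all tested genes, 5.38% held AP1, 5.46% the response element core, 26.0% the ETS core and 1.32% a CArG box. The corresponding shares were 7.19%, 2.74%, 13.4% and 1.03% of 292 promoters of genes called lower, and 7.35%, 4.90%, 15.1% and 2.45% of 245 promoters of genes called higher. Of the 12 promoters of the whole ERK list, none held AP1, 2 the response element core, 1 the ETS core and 1 a CArG box. These shares are descriptions of the letters in 1 window per gene.

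Immediate-early and AP1 genes leaned downward but did not move as a block. Of 19 tested, 1 was called higher and 2 lower, with a median of -1.43 and line medians from -1.39 to -0.09. A positive log2 fold change was seen in 5. In 6 of 6 lines 7 were lower and 2 higher, against 9.94% and 9.55% of all genes. Every resistant sample lay below every parental one in 5 members and above in 1. Egr1, a zinc-finger factor induced within minutes by ERK, went from 279 to 1894 (median 462) down to 3.57 to 27.7 (median 7.62). Its groups were far apart, and the log2 fold change was -5.81 ± 0.53 (adjusted p = 0.00129, leave-one-out core). Fos fell from 75.7 to 347 (median 127) to 12.5 to 44.5 (median 27.1), a log2 fold change of -2.44 ± 0.42 (adjusted p = 0.00987) that was not called without any of the 6 lines in turn. Fosl2, a partner of JUN in AP1, went the other way. It held 2169 to 3288 (median 2544) in parental and 5185 to 12718 (median 9803) in resistant cells, with no overlap and a log2 fold change of 1.76 ± 0.18 (adjusted p = 0.00206). Fosl1, another FOS-family member of AP1, went from at least 1621 to at most 47.8 in lines 3, 4, 6, 9 and 10 and was 1247 in parental and 1659 in resistant cells of line 7. Over 6 lines its log2 fold change of -5.88 ± 1.08 was not called (adjusted p = 0.0126), and without line 7 it was -7.14 (adjusted p = 0.00158). Jun (1.36, adjusted p = 0.0885), Atf3 (2.48, adjusted p = 0.0222) and Myc (-1.43, adjusted p = 0.0968) were not called.

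Of the genes of the cascade itself, from RAS to ERK, 1 of 20 (5.00%) was called, a share near the 4.19% of all genes, and the median was -0.07. The called gene was Rasa2, a RAS GTPase-activating protein, whose level fell from 1787 to 2819 (median 2122) to 340 to 1150 (median 499) with a log2 fold change of -2.02 ± 0.23 (adjusted p = 0.00274).

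Among 9 ligands of the EGFR family, 1 was called, with a median of -1.48. Areg, amphiregulin, fell from 215 to 2492 (median 1747) to 0 to 70.3 (median 10.2), a log2 fold change of -6.89 ± 0.66 (adjusted p = 0.00159, leave-one-out core). Receptor tyrosine kinases changed in both directions, with 3 of 28 higher and 2 lower. Their median was -0.26, whereas their mean was 0.45. Fgfr3, a fibroblast growth factor receptor, rose from a median of 191 to 1871 (log2 fold change 3.95 ± 0.41, adjusted p = 0.00206), and Ddr1, a collagen receptor, rose without overlap from 4782 to 31081 (2.11 ± 0.27, adjusted p = 0.00363). Flt4, the receptor of lymphatic growth factors, rose by 3.42 ± 0.49 (adjusted p = 0.00533). Fgfr4 fell by 6.87 ± 1.04 (adjusted p = 0.00632). Axl, a receptor often linked to mesenchymal cells, held 19504 to 38088 in parental and 6731 to 18826 in resistant cells, so that it fell with no overlap (-1.35 ± 0.22, adjusted p = 0.00788). All 5 calls were lost without at least 1 line. Egfr was higher by 0.44 to 2.89 in 5 lines but went from 8753 to 23.5 in line 9, and its log2 fold change was -0.18 over 6 lines and 1.48 without line 9. Met (-0.67), Erbb3 (-1.49), Pdgfrb (2.91) and Fgfr1 (0.52) were not called, with adjusted p-values from 0.093 to 0.742. Of 19 PDGF and FGF ligands, Fgf18 was called higher (3.37 ± 0.44, adjusted p = 0.00381) and Fgf1 lower (-4.85 ± 0.78, adjusted p = 0.00782).

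**Figure D2:**
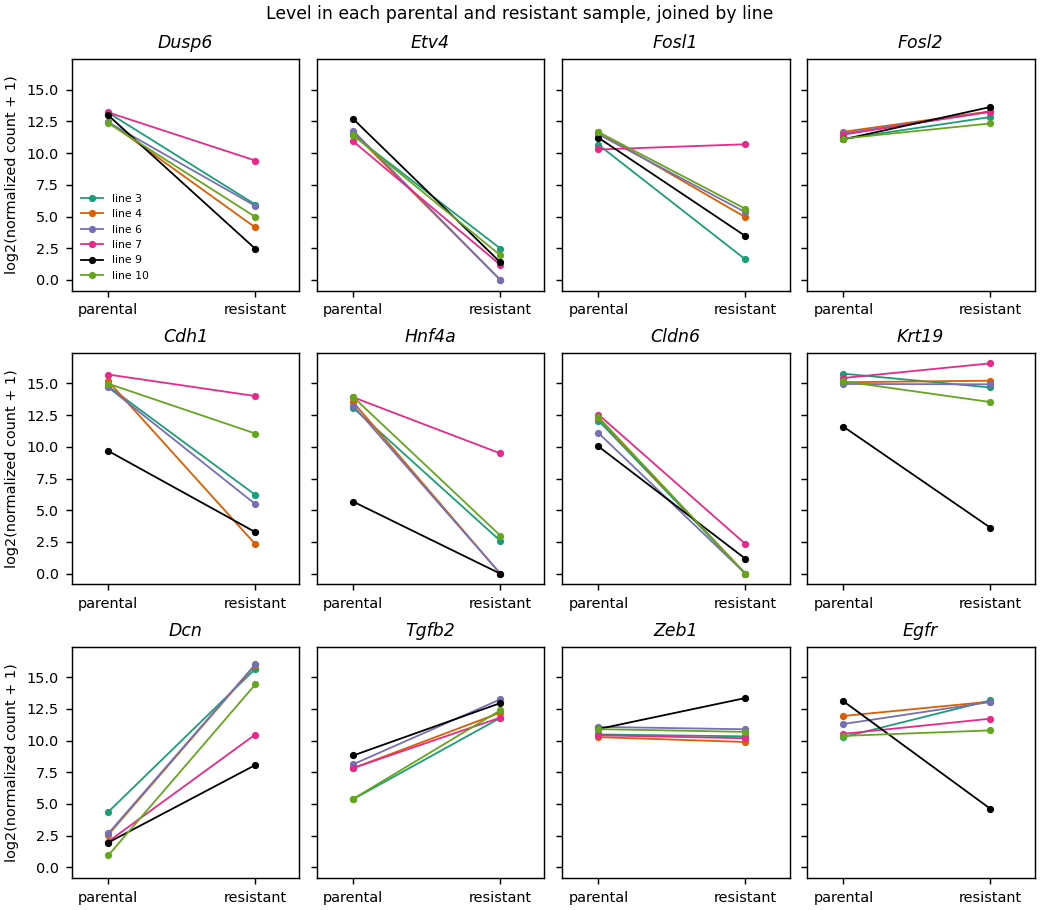
Each panel shows 1 gene, with the log2 of the normalized count plus 1 on the vertical axis and the parental and resistant sample of each of 6 lines joined by a coloured line. Etv4 and Dusp6 fell and Dcn rose in all lines, while Fosl1 is not lower in line 7, Egfr and Krt19 drop in line 9, and line 9 alone among the 6 has a higher Zeb1 (10453 against 1921).

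Several epithelial junction genes fell in resistant cells. Of 30 junction and polarity genes tested, 6 were called lower, none higher and 24 not called, and 9 had a positive log2 fold change, with a median of -2.06 and line medians from -0.83 to -1.94. The count was 2 without line 3 or 6, 3 without line 10, 4 without line 4 and 8 without line 9. Cldn6 (chromosome 17, 23679249 to 23682446, mm10), a claudin of embryonic epithelia, had the largest fall of all named genes. It held 1048 to 5971 (median 4616) in parental cells and 0 to 4.07 (median 0) in resistant cells, a log2 fold change of -11.14 ± 0.52 (adjusted p = 0.000231). Ocln, the tight-junction protein occludin, went from 526 to 2969 (median 722) down to 2.81 to 49.2 (median 3.56), with no overlap (-6.76 ± 0.56, adjusted p = 0.00113). Both belonged to the leave-one-out core. Cldn4 lay at or below 3 reads in every resistant sample and was at least 105-fold lower than in parental cells, where it averaged 354. That bound rests on lines 3, 4, 6 and 7, at 295 to 745, since parental Cldn4 was only 7.96 in line 9 and 11.5 in line 10. Cldn7 (-6.0), Pkp3, a desmosomal plakophilin (-5.26), and Spint2, a serine protease inhibitor of epithelia (-4.46), were also lower.

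Cdh1, E-cadherin, was lower in 6 of 6 lines but was not called (log2 fold change -7.11 ± 1.3, adjusted p = 0.0124). Its parental levels were 26491 to 53229 in 5 lines and 816 in line 9. In resistant cells it was 4.01 to 73.1 in lines 3, 4, 6 and 9, 2120 in line 10 and 16401 in line 7. The size of the difference therefore varied from -1.70 in line 7 to -12.84 in line 4, and without line 7 it was -8.19 (adjusted p = 0.00832). Of 12 keratins tested, Krt23 (-6.76 ± 0.88, adjusted p = 0.00388) and Krt20 (-5.78 ± 0.80, adjusted p = 0.00469) were called lower. Neither was called without line 3, 4, 6 or 10, and without line 7 only Krt20 was. Krt8 (-1.81, adjusted p = 0.0277) and Krt19 (-1.57, adjusted p = 0.36) were not called over 6 lines. Without line 9, 4 keratins were called, Krt8 among them (-2.17, adjusted p = 0.00948).

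Some transcription factors of the foregut and some genes of the classical, gastric-like state of pancreatic cancer fell as well. Of 18 pancreatic and foregut transcription factors, 5 were called lower and none higher (median -3.70), and of 19 genes of the gastric-like classical state, 4 were lower and none higher (median -3.61). Line 9 showed the smallest median fall in both lists, -1.52 and -1.88. Without line 9, 8 of each list were called lower. Without line 4, 6 or 10, none of the transcription factors passed, without line 3, 1 did, and without line 7, 3 did. For the gastric-like genes the count was 1 without line 6 and 2 without line 3, 4 or 10.

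Hnf4a (chromosome 2, 163506808 to 163572910, mm10), a nuclear receptor that sets endodermal identity, ranged from 50 to 15463 (median 10673) in parental and from 0 to 713 (median 2.51) in resistant cells. Only the parental sample of line 9 and the resistant sample of line 7 made the groups overlap. The log2 fold change was -9.71 ± 1.26 (adjusted p = 0.00389). Pdx1, the master factor of the embryonic pancreas, held 955 to 1868 (median 1529) against 0 to 416 (median 15.2), without overlap (-6.78 ± 0.99, adjusted p = 0.00547). The epithelial factors Foxa3 (-4.52) and Elf3 (-3.81) fell too. Cdx2, an intestinal homeobox factor outside these lists, went from 670 to 2086 (median 957) to 0 to 40.7 (median 0), a log2 fold change of -8.99 ± 0.86 (adjusted p = 0.00158, leave-one-out core). Among genes of the gastric-like list Ctse, the protease cathepsin E, fell from a median of 4929 to 6.04 (-8.91 ± 0.85, adjusted p = 0.00159, leave-one-out core), and Tff1, a trefoil peptide of gastric mucus, from 621 to 0.447 (-8.22 ± 0.87, adjusted p = 0.00214). The mucin Muc5ac (-6.66) and the annexin Anxa10 (-7.29) were also called. Gata6 did not follow. It held 45.0 to 3425 (median 1846) in parental and 146 to 4327 (median 3963) in resistant cells, with a log2 fold change of 0.77 ± 0.34 (adjusted p = 0.172). Sox9, a ductal factor, was lower in 6 of 6 lines (-3.06 ± 0.53) with an adjusted p of 0.0102, just outside the threshold.

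Some mesenchymal structural genes rose, and no EMT transcription factor was called over 6 lines. Of 20 mesenchymal genes tested, 4 were called higher and none lower, 15 had a positive log2 fold change and the median was 1.62. The line medians were 1.02 to 2.99 in 5 lines and -0.80 in line 9. The count was 1 without line 6 or 10, 2 without line 3 or 4 and 6 without line 9. Sparc, a secreted matrix-binding protein, rose from 324 to 19716 (median 5845) to 10522 to 289234 (median 201034), a log2 fold change of 5.21 ± 0.54 (adjusted p = 0.00206). The ranges overlapped, but every line rose by at least 3.36. Tnc, the matrix protein tenascin C, rose by 3.50 to 5.96 in every line (4.76 ± 0.34, adjusted p = 0.00082) although its level differed widely between lines, and belonged to the leave-one-out core. Fstl1, a follistatin-like glycoprotein (6.05), and Loxl1, a collagen cross-linking enzyme (6.11), were also higher. Cdh2, N-cadherin, held 3182 to 6570 in parental and 7322 to 29631 in resistant cells. These groups did not overlap, but its log2 fold change of 1.77 ± 0.34 was not called (adjusted p = 0.0149), with 0.16 in line 4. Vim, the intermediate filament vimentin, was high in both states (43833 to 112066 against 17149 to 91600, log2 fold change -0.61, adjusted p = 0.253).

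No member of the 15 EMT transcription factors tested was called at a threshold that 4.19% of all genes passed, and their median was 0.21. That count depended on line 9. Without it 2 were called higher and 1 lower, in a fit that called 1051 of 17720 genes. Without any other line none was called. Zeb1 was between -0.39 and -0.16 in 5 lines and 2.44 in line 9. Snai2 was between 0.78 and 1.59 in 5 lines and -2.82 in line 9. Snai1 (2.01, adjusted p = 0.0729), Zeb2 (1.98, adjusted p = 0.0685) and Twist1 (-1.05, adjusted p = 0.436) were not called either. Of 16 contractile genes, Tagln, transgelin, was called higher (5.83 ± 0.96, adjusted p = 0.0086), the list median being 1.87. Acta2, smooth muscle actin, was higher in 6 of 6 lines by 2.08 to 14.13, which gave a log2 fold change of 6.29 ± 1.40 (adjusted p = 0.0234).

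Collagens formed the list with the highest median among the 42 examined, 2.00, and 6 of 31 tested members were called higher and none lower. The line medians ran from 0.32 in line 7 to 4.45 in line 3. The count was 2 without line 4, 6 or 10, 3 without line 3, 4 without line 7 and 7 higher with 1 lower without line 9. Col12a1, a fibril-associated collagen, held 4.20 to 1270 (median 70.8) in parental and 1716 to 26313 (median 16700) in resistant cells, without overlap (7.46 ± 0.82, adjusted p = 0.00246). Col14a1, its relative, went from 0 to 14.8 (median 2.07) up to 27.9 to 393 (median 183), with a log2 fold change of 5.43 ± 0.47 (adjusted p = 0.00115). The basement-membrane chain Col4a4 rose from a median of 16.1 to 3262 (6.43 ± 0.51, adjusted p = 0.000985). Col14a1 and Col4a4 belonged to the leave-one-out core. Col1a1, the main fibrillar collagen, was higher by 6.0 to 9.98 on the log2 scale in lines 3, 4, 6 and 9, by 1.78 in line 10 and by 0.03 in line 7, and was not called (5.19 ± 1.2, adjusted p = 0.0261).

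Proteoglycans and matricellular proteins held genes with large changes in both directions. Of 31 tested, 3 were higher and 2 lower, and the median was 0.27. Dcn (chromosome 10, 97479609 to 97518143, mm10), the proteoglycan decorin, ranged from 0.935 to 19.8 (median 4.03) in parental and from 268 to 65969 (median 36729) in resistant cells. Its log2 fold change of 11 ± 1.02 (adjusted p = 0.0014) was the highest of all named genes, with 6.11 in line 9 and 8.44 in line 7 against 11.27 to 13.47 in the other lines. Ogn, osteoglycin (7.2 ± 1.19, adjusted p = 0.00875), and Hspg2, the basement-membrane proteoglycan perlecan (2.03 ± 0.24, adjusted p = 0.003), rose as well. Acan, the cartilage proteoglycan aggrecan, moved the opposite way, from 779 to 14755 (median 7554) to 0 to 5.98 (median 1.47), a log2 fold change of -10.95 ± 0.84 (adjusted p = 0.000865). Spp1, the secreted phosphoprotein osteopontin, fell from 62652 to 158447 (median 96741) to 148 to 3392 (median 1077), by -7.18 ± 0.67 (adjusted p = 0.0014). Dcn, Acan and Spp1 all belonged to the leave-one-out core.

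Matrix proteases included Adamts5, an aggrecan-cleaving enzyme, which rose from 2.46 to 71.3 (median 14.9) to 935 to 6665 (median 2453), a log2 fold change of 7.2 ± 0.71 (adjusted p = 0.00179, leave-one-out core). Adamts1 (4.29 ± 0.54) and the inhibitor Timp2 (1.16 ± 0.18) were also higher, and 3 of 29 members of this list were called in all. Integrins and laminins split, with 2 of 29 higher and 2 lower. Itgb8, which activates latent TGF-beta, rose by 5.07 ± 0.57 (adjusted p = 0.00254) and the laminin chain Lama2 by 3.37 ± 0.58 (adjusted p = 0.00982). Itga2, a collagen receptor subunit, fell by 7.39 ± 0.77 (adjusted p = 0.00206). Itga6, the laminin receptor subunit of epithelia, fell from 17854 to 25273 (median 20246) to 77.6 to 3802 (median 1912) without overlap (-4.31 ± 0.73, adjusted p = 0.00941). Lama2 and Itga6 were not called whichever line was left out.

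Several markers of fibroblasts, among them Col1a1, Col1a2, Col3a1 and Dcn, are also members of these matrix lists. The marker list is therefore not independent of them. Of 10 such markers, 9 passed the filter and 1, Dcn, was called higher. Their summed level ran from 106 to 24816 in parental and from 1904 to 577939 in resistant cells, the highest levels being those of Col1a1, Col1a2, Col3a1 and Dcn. Of the markers outside the matrix lists, Pdgfra had a log2 fold change of -1.13. Pdgfrb was at 2.91, Pi16 at 4.24, Fap at 1.51 and Dpt at 1.31, and none of these was called. No marker of this list was at or below 3 reads in all 12 samples. Markers of smooth muscle and pericytes summed to 53.5 to 1781 and 407 to 18874, with Kcnj8 at or below 3 reads in all samples. The highest of these sums, in resistant line 10, held 16033 from Mcam, and none of these markers was called. Macrophage markers summed to 347 to 2950 and 231 to 2935. The highest parental sum, in line 3, held 2802 from Mrc1, and the highest resistant one, in line 10, held 2530 from Csf1r. Mrc1 was called lower (-7.65) and no other macrophage marker was called. Csf1r (2.93), Fcer1g (0.75) and Cd68 (0.61) had a positive log2 fold change, Ptprc (-0.73) and Itgam (-0.94) a negative one. Endothelial markers summed to 50.1 to 183 and 39.4 to 2760. The highest endothelial sum, in resistant line 6, held 2512 from Tek, and no endothelial marker was called. Whether other cells in the cultures contributed to the matrix lists was not tested.

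**Figure D3:**
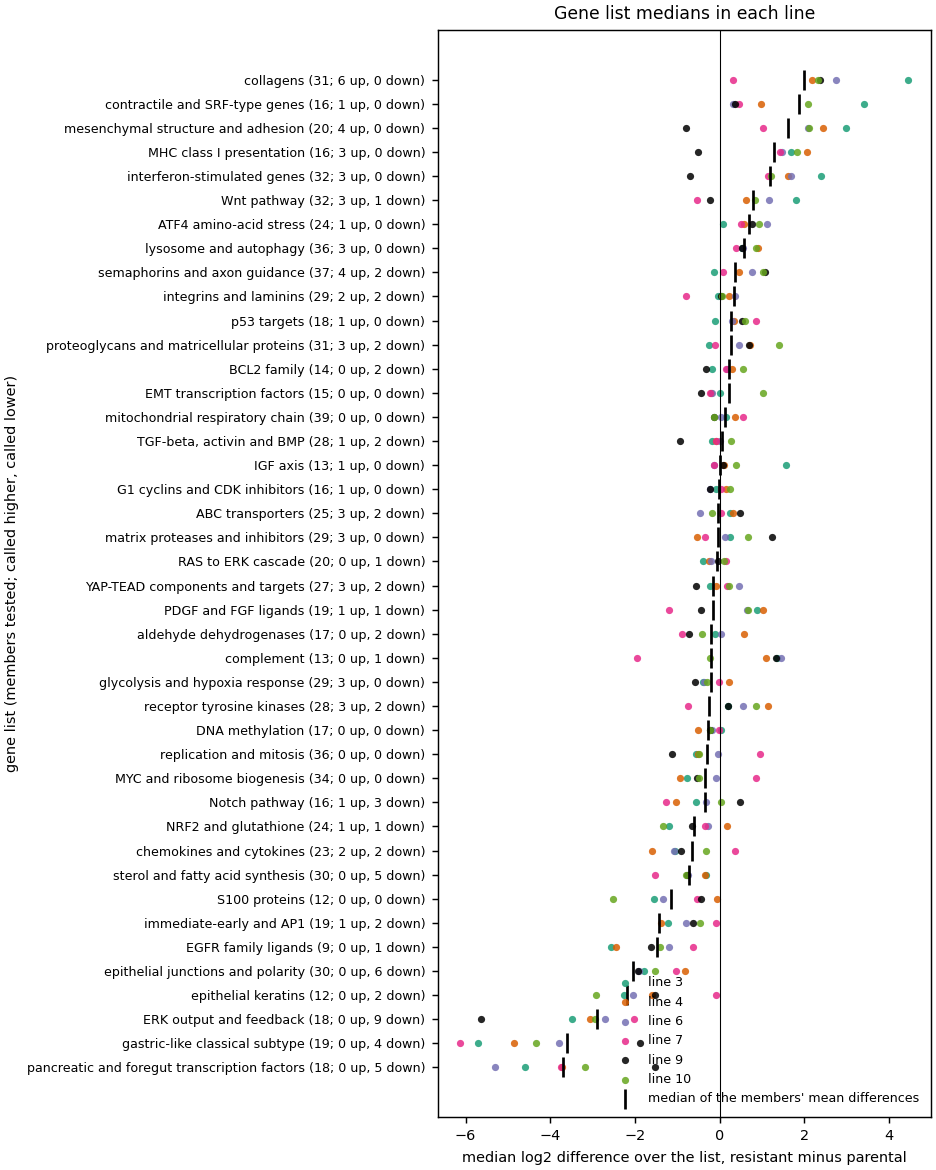
Each row is 1 of 42 gene lists, with the number of members tested and called in brackets, and the horizontal axis is the median log2 difference over the list, resistant minus parental. Coloured points are the medians within each of 6 lines and the black bar is the median of the members' means over lines. The bars run from -3.70 for pancreatic and foregut transcription factors to 2.00 for collagens, and line 9 (black points) lies left of 0 for mesenchymal, interferon-stimulated and MHC class I genes.

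Signalling lists outside ERK changed gene by gene. Of 28 TGF-beta, activin and BMP genes, 1 was higher and 2 lower (median 0.06). Tgfb2, a TGF-beta ligand, held 40.9 to 453 (median 227) in parental and 3532 to 9743 (median 5032) in resistant cells. No value overlapped, and the log2 fold change was 5.16 ± 0.43 (adjusted p = 0.00115, leave-one-out core). Ltbp2 (-2.80) and the activin receptor Acvr1b (-2.06) were lower. Of 32 Wnt pathway genes, 3 were higher and 1 lower (median 0.79). Axin2, a feedback target of beta-catenin, went from a median of 27.9 to 327 (2.88 ± 0.48, adjusted p = 0.0086), and the ligand Wnt9a (5.17) and the receptor Fzd6 (1.6) were also higher, whereas the receptor Lgr5 fell by 3.32 ± 0.40 (adjusted p = 0.003). Daam2, a formin that acts in Wnt signalling, was among the 12 highest rises. It went from 8.89 to 63.1 (median 11.9) up to 3354 to 11836 (median 6744), by 8.34 ± 0.64 (adjusted p = 0.000857, leave-one-out core).

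Of 16 Notch genes, 1 was higher and 3 were lower (median -0.34). Nrarp, a feedback target of Notch, fell from 267 to 1071 (median 837) to 1.25 to 110 (median 15.2), a log2 fold change of -5.33 ± 0.53 (adjusted p = 0.00182, leave-one-out core). The ligands Dll1 (-2.60) and Jag2 (-2.02) fell and the modifier Lfng rose (2.34). In the list of YAP and TEAD components and targets, 3 of 27 were higher and 2 lower (median -0.16), with the Hippo kinase Lats2 (1.31) and Amotl2 (1.29) up and Fjx1 (-2.78) down. In the IGF axis 1 of 13 was called. This was Igfbp2 (chromosome 1, 72824503 to 72852474, mm10), which binds insulin-like growth factors, and it went from 2.27 to 19.4 (median 8.07) up to 218 to 52847 (median 13654), by 9.82 ± 0.97 (adjusted p = 0.00175, leave-one-out core). Semaphorin and axon-guidance genes gave 4 of 37 higher and 2 lower. Sema3d, a secreted semaphorin, rose from 8.54 to 110 (median 66.6) to 877 to 27187 (median 5403), by 6.52 ± 0.55 (adjusted p = 0.00115), and Sema6b fell by 4.66 ± 0.40 (adjusted p = 0.00115). Both were in the leave-one-out core.

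Cell-cycle genes showed no call apart from an inhibitor. None of 36 replication and mitosis genes passed the paired limma threshold, with a median of -0.29. The line medians lay between -1.12 and -0.03 in 5 lines, and line 7 was at 0.96. Mki67, the proliferation antigen, held 15559 to 28839 in parental and 8568 to 22996 in resistant cells. Its log2 fold change was -0.63 ± 0.23 (adjusted p = 0.108), and it was higher in line 7 only. MYC and ribosome-biogenesis genes gave no call among 34, with a median of -0.34, and line 7 at 0.85 was the only line above 0. Among 16 G1 regulators Cdkn2c, an inhibitor of CDK4 and CDK6, rose without overlap from 431 to 904 (median 735) to 1393 to 4207 (median 2496), by 1.93 ± 0.26 (adjusted p = 0.00416). Cdkn1a was not called (1.16 ± 0.36, adjusted p = 0.0679).

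In metabolism, all calls in sterol and fatty acid synthesis were falls. Of 30 genes tested, 5 were called lower and none higher, 28 had a negative log2 fold change, and 16 were lower in 6 of 6 lines, which held for 9.94% of all genes. The median was -0.72, and the count was 5 without line 9, 2 without line 4 and 1 without each of the others. Fdps, an enzyme of isoprenoid synthesis, held 7579 to 18578 (median 11868) in parental and 1953 to 5712 (median 4002) in resistant cells. These ranges did not overlap, and the log2 fold change was -1.65 ± 0.24 (adjusted p = 0.00547). The fatty acid elongase Elovl6 fell without overlap from a median of 9330 to 2118 (-2.25 ± 0.35, adjusted p = 0.0069), and the isomerase Idi1 by 1.33 with overlapping ranges. Lysosome and autophagy genes gave 3 of 36 higher, 33 with a positive log2 fold change and a median of 0.57. They included Tfeb, the regulator of lysosomal genes (1.49 ± 0.25, adjusted p = 0.00938), Atp6v0d1, a proton pump subunit (1.35 ± 0.17, adjusted p = 0.00372), and Map1lc3a (1.64). All 3 calls were lost without at least 1 line, and that of Tfeb whichever line was left out. Of 29 glycolysis and hypoxia genes, 3 were higher (P4ha2 2.31, Pfkp 1.46, Pfkfb3 1.27) and the median was -0.21. None of 39 genes of the mitochondrial respiratory chain was called, with a median of 0.13 and a range from -0.54 to 0.83.

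Antigen-presentation and interferon-stimulated genes included 6 called rises and no called fall, and both list medians were above 0 in 5 lines and below 0 in line 9. Of 16 MHC class I presentation genes, 3 were called higher and none lower, with a median of 1.27. The line medians were 1.43 to 2.05 in 5 lines and -0.52 in line 9, and without line 9, 8 were called. The count was 0 without line 3, 6 or 10, 1 without line 4 and 2 without line 7. Tap1 and Tap2 form the peptide transporter of the endoplasmic reticulum. Tap2 (chromosome 17, 34203527 to 34216321, mm10) rose from 7.23 to 46.0 (median 25.1) to 268 to 1528 (median 667), by 4.83 ± 0.57 (adjusted p = 0.00299), and Tap1 from a median of 7.59 to 247, by 4.03 ± 0.54 (adjusted p = 0.00417). Tapbp, which links the transporter to MHC, rose by 2.49 ± 0.34 (adjusted p = 0.00443), with 0.69 in line 9. These 3 genes rose in all lines and their groups did not overlap.

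Of 32 interferon-stimulated genes, 3 were higher and none lower, 29 had a positive log2 fold change and the median was 1.19. The line medians were 1.13 to 2.40 in 5 lines and -0.70 in line 9. Without line 9, 9 were called, and without any other line none was. The called members were Xaf1 (21 to 198 against 424 to 696, log2 fold change 2.78), Herc6 (1.74) and Ifi35 (1.57), each without overlap. Chemokines and cytokines gave 2 of 23 higher and 2 lower. Cxcl5, a neutrophil attractant, fell in every line by a similar amount, from -5.65 to -7.26, with a log2 fold change of -6.20 ± 0.32 (adjusted p = 0.000258), while Ccl7, a monocyte attractant, rose from a median of 1.36 to 189 (5.16 ± 0.50, adjusted p = 0.00159). Both were in the leave-one-out core. Csf2 lay at or below 3 reads in every resistant sample and was at least 10.5-fold lower than the mean of the parental samples, which held 10.7 to 53.7. Il18 rose by 3.80. Of 13 complement genes, Cfb fell by 7.69 ± 1.11 (adjusted p = 0.00519).

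Stress, survival and drug-handling genes gave calls in both directions. Of 14 members of the BCL2 family, 2 were lower and none higher. Bcl2, the apoptosis inhibitor, fell without overlap from 984 to 1794 (median 1134) to 25.5 to 179 (median 150), by 3.38 ± 0.39 (adjusted p = 0.00273), and Bcl2l1, which encodes BCL-XL, by 1.87 ± 0.22 (adjusted p = 0.00274). Bcl2 was not called without line 4, 6 or 10, nor Bcl2l1 without line 3, 6 or 10. ABC transporters split into 3 of 25 higher and 2 lower. Abcb1a, which encodes a P-glycoprotein, fell from 288 to 3644 (median 2684) to 0.89 to 198 (median 29.4), by 6.08 ± 0.62 (adjusted p = 0.00189). Abcg2, another drug exporter, rose without overlap from a median of 2237 to 7198 (1.67 ± 0.24, adjusted p = 0.00514). Abca9 (6.03) and Abcb6 (1.29) were higher and Abcc3 (-2.17) was lower. Of 24 NRF2 and glutathione genes, Hmox1 rose (2.04 ± 0.30, adjusted p = 0.00561) and Gsta1 fell (-5.78 ± 0.92, adjusted p = 0.00757). Of 24 genes of the amino-acid stress response run by ATF4, 23 had a positive log2 fold change, the median was 0.69 and Ddit3 was called higher (2.06 ± 0.28, adjusted p = 0.00463). Fas, a death receptor, was the called member of 18 p53 targets, rising from a median of 8.81 to 142 (4.30 ± 0.55, adjusted p = 0.00381). Fas was not called without line 3, 4, 6 or 10. The lines carry Trp53loxP/loxP, and p53 activity was not tested. Aldehyde dehydrogenases gave 2 of 17 lower, Aldh2 (-2.03 ± 0.17, adjusted p = 0.00115, leave-one-out core) and Aldh1a3 (-3.67 ± 0.58, adjusted p = 0.00739).

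None of 12 S100 genes and none of 17 genes of DNA methylation passed the paired limma threshold, with medians of -1.14 and -0.28. The DNA methyltransferases Dnmt1 (-0.28 ± 0.30, adjusted p = 0.563), Dnmt3a (0.13 ± 0.35, adjusted p = 0.826) and Dnmt3b (0.31 ± 0.52, adjusted p = 0.734) each moved up in some lines and down in others. Of all genes tested, 5619 (31.7%) had an unadjusted p below 0.05. The median and the mean of a list differed in sign for receptor tyrosine kinases, PDGF and FGF ligands (-0.16 and 0.30), EMT transcription factors (0.21 and -0.10), integrins and laminins (0.33 and -0.08), matrix proteases (-0.05 and 0.28), the BCL2 family (0.23 and -0.14), ABC transporters (-0.05 and 0.02).

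Several of the largest changes lay outside these lists. Npr3, the clearance receptor for natriuretic peptides, rose from 1.54 to 176 (median 6.05) to 309 to 64679 (median 5080), by 8.36 ± 0.49 (adjusted p = 0.000404), with 6.68 to 10.33 in the 6 lines. The transcription factors Eya4 (7.27 ± 0.44), Foxo6 (6.33 ± 0.39) and Pou3f1 (6.73 ± 0.49) rose without overlap and, like Npr3 and the methyltransferase Nnmt (7.71 ± 0.66), stayed in the leave-one-out core. Rnf112, a RING-finger protein, lay at or below 3 reads in every parental sample, and the mean of the resistant samples, 1966, was at least 649-fold higher. That bound rests on lines 3, 4, 6 and 10, at 1766 to 3994. Resistant Rnf112 was far below these levels in line 7 and reached only 5.98 in line 9. Rnf112 was not called without line 3, 4, 6 or 10. Fam180a (8.42), Lctl (7.63), the urothelial and mesothelial gene Upk3b (7.62) and Vgll3, a cofactor of TEAD (7.52), completed the rises. Vgll3 rose by 7.82 to 9.71 in 5 lines and by 1.75 in line 9.

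Among falls outside the lists, Cdcp1, a transmembrane glycoprotein phosphorylated by SRC, went from 400 to 2141 (median 1228) to 0 to 7.67 (median 2.83), by -8.34 ± 0.41 (adjusted p = 0.000231). The lines differed little, from -6.66 to -9.41. Iqgap2, a scaffold protein, fell from 4107 to 7813 (median 5873) to 1.25 to 145 (median 15.2), by -8.48 ± 0.60 (adjusted p = 0.00082). The organic anion transporter Slco4a1 (-8.76 ± 0.89) and the factor Sox13 (-8.72 ± 0.85) fell without overlap. These 4 genes belonged to the leave-one-out core, whereas Clic6, an intracellular chloride channel protein (-9.02 ± 1.12), did not, with -2.52 in line 9. Parental Clic6 was only 11.9 in line 9, a level that limits the fall possible there, against 1681 to 8397 in the other lines.

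**Figure D4:**
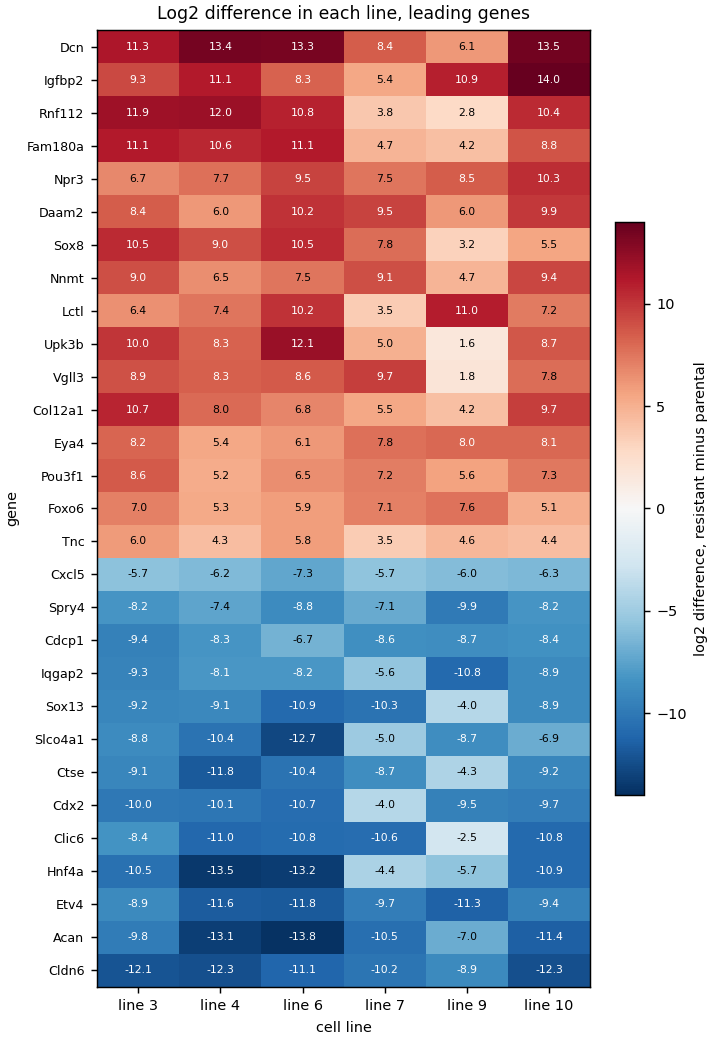
Rows are genes with the largest changes or the largest moderated t, ordered by log2 fold change, and columns are the 6 lines. Colour and number give the log2 difference of each line, resistant minus parental, with red higher and blue lower in resistant cells. All cells of the upper rows are positive and all of the lower rows negative, and the palest cells lie in lines 7 and 9.

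Few genes met a strict rule for being switched on or off, at most 5 normalized counts in all 6 samples of one state and at least 50 in all 6 of the other. Sox8, a SOX-family factor, was the only gene switched on, from at most 4.98 to 53.5 to 1439 in resistant cells (log2 fold change 7.74 ± 1.00, adjusted p = 0.00381). Cldn6, Etv4 and Stac were switched off. Stac, an adaptor protein with SH3 domains, held 122 to 792 (median 366) in parental cells and at most 1.11 in resistant cells. That is at or below 3 reads in every resistant sample and at least 118-fold lower than the parental mean of 399.

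The lines differed in how far they followed the shared pattern. Across 12006 genes with a mean of at least 100, between 29.3% and 33.5% changed by more than 2-fold in any line. Of genes called in the other 5 lines, line 9 moved the same way in 775 of 1051 (73.7%) and line 7 in 523 of 622 (84.1%), against 95.7% to 100% for lines 3, 4, 6 and 10. The differences of 2 lines correlated across these genes with Pearson's r from 0.24, for lines 7 and 9, to 0.78, for lines 4 and 6. These correlations are across genes, which are not independent replicates, and the numbers of called genes behind the percentages differ between lines.

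Genes that moved in 1 line against the rest were mostly those of line 9. Pdpn, the membrane glycoprotein podoplanin, lay between 0 and 97.3 in the other parental lines and between 21.2 and 16377 in their resistant cells, but went from 334 to 4.18 in line 9. Larp6, an RNA-binding protein of collagen transcripts, was at or below 1.54 in 5 parental lines and at 16.8 to 706 in their resistant cells. In line 9 it went from 155 to 0. Gfpt2, an enzyme of hexosamine synthesis, went from 611 to 7.48 in line 9 and was higher by 3.64 to 9.26 in the others. Emilin2 (375 to 0) and Igfbp6 (1961 to 99.7) were also lower in line 9. None of these 5 genes was called over 6 lines, and without line 9, Pdpn (8.23), Larp6 (7.19) and Gfpt2 (6.87) were called higher. The widest deviation of all was Gm28437, an unprocessed pseudogene on chromosome 1 in the annotation, which went from 52731 to 0 in line 10, was at 0 in both states of line 3 and was 9.06 higher in resistant cells of line 7. Reads of a pseudogene can be shared with a near-identical copy, so these values are uncertain.

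Expression also differed by chromosome within lines. For each line, the median log2 difference of the genes on a chromosome was taken after subtracting the median of all genes, over genes with a mean of at least 100. Of 120 pairs of chromosome and line, 53 lay beyond 0.2 in either direction. The lowest were chromosome 12 in line 10 (-1.17) and in line 7 (-0.97), over 400 genes, while chromosome 12 was at -0.07 in line 4 and 0.24 in line 9. Chromosome 15 was above 0 in 6 of 6 lines, from 0.06 to 0.62, as were chromosome 4 (0.13 to 0.34) and chromosome 11 (0.03 to 0.41). Chromosomes 3 and 7 were below 0 in 6 of 6 lines, down to -0.60 and -0.50. The remaining chromosomes had lines on both sides of 0.

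**Figure D5:**
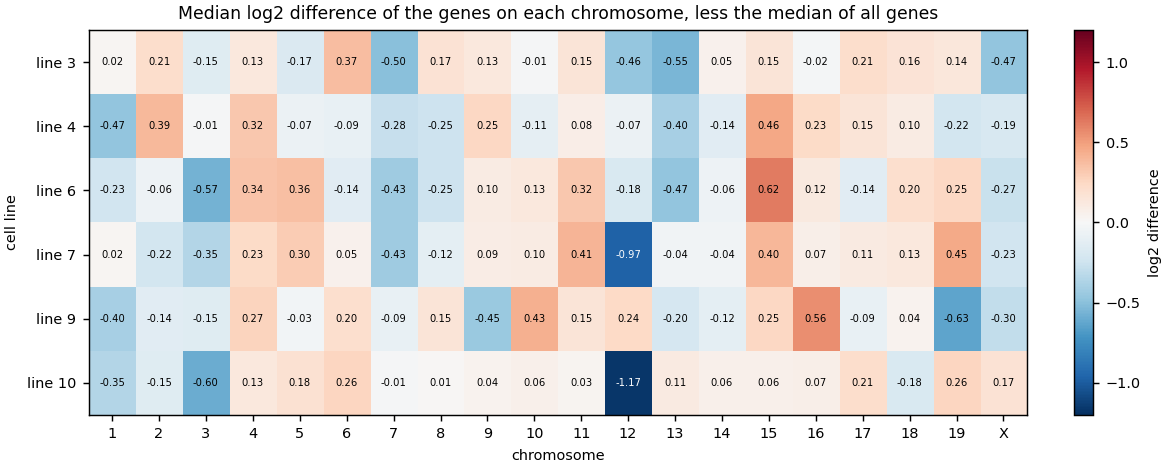
Columns are chromosomes and rows the 6 lines. Colour and number give the median log2 difference, resistant minus parental, of the genes on a chromosome less the median of all genes of that line, with red higher and blue lower in resistant cells. Chromosome 12 in lines 7 and 10 has the deepest blue, and chromosome 15 is positive in every row.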

How the data were processed

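RNA was sequenced after poly(A) selection with a stranded kit from 21 samples of 6 murine pancreatic cancer lines. The study's methods name a HiSeq or a NovaSeq instrument and do not say which samples ran on which. An effect of instrument or run on the differences was not tested. The authors demultiplexed reads with bcl2fastq 2.19 or CASAVA 2.17, trimmed them with Skewer, quantified transcripts with Salmon 0.12 and summed them per gene with tximport, per the labels and the study's methods. The authors deposited a signal value per gene and sample, the count after DESeq2 1.18 normalization, called a normalized count here, for 34478 genes and the genome build mm10. Low values fell on steps of whole reads in 45.0% to 66.3% of cases within a tolerance of 0.02 of a step, so reads could not be recovered and no count model was fitted.

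Values were analysed as log2(normalized count + 1) in limma 3.58.1 (R 4.3.3), on genes with at least 10 in at least 3 of the 12 samples, with state and cell line as terms, a trended eBayes variance, 5 residual degrees of freedom and Benjamini-Hochberg adjustment over all 17720 genes. All adjusted p-values in the text are limma's, two-sided, and SE is that of the log2 fold change over 6 lines. The log2 scale with a pseudocount of 1 understates the change of low genes. The study compared all 4 cell states, and a fit of 21 samples with no block was run as an alternative, since the methods name no line term. It was not the reported fit because the 9 withdrawal samples descend from the resistant cells. Parental and resistant samples of 1 number come from the same cell line. Their deviations from the group means correlated at 0.161 to 0.362 (median 0.22), against a median of -0.0672 between different lines, and in 5 of 6 lines the own partner was the best match.

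Named genes were the 12 largest rises and falls among calls of 1 direction in all lines, the 5 largest moderated t in each direction, up to 3 called members per list and direction, a fixed set of 42 genes, genes switched on or off and the 6 genes in which 1 line differed most from the rest. Cell type markers were described by counts and summed levels. The comparison and the 42 lists of programs, which were written from general knowledge, were chosen with earlier results of these data known. Gene positions are from GENCODE M21 (GRCm38). Some genes counted in these lists are not reported here by name. The fitting was tested on simulated data. Bounds against samples at or under 3 reads use the mean level of 3 reads in that group and cover counting error only.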

Additional observations from a re-analysis of the deposited data

Results flagged for a closer look

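In each of 221 values the 6 lines were compared, and 24 had 1 line whose distance to its nearest neighbour exceeded Dixon's critical share of the whole range of the 6. The critical share is set for about 1 in 20 among independent, normally distributed values. Many of these genes were named for the size or agreement of their changes, and some lists share genes. Larp6 and Gfpt2 were named because 1 line differed most from the rest. That rate is therefore no expectation for these values. Line 9 was the one apart in 14 values, line 7 in 6, line 3 in 2 and lines 6 and 10 in 1 each. All values are log2 differences, resistant minus parental, and none of these deviations was tested.

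Line 9 differed most often. Against the other 5 lines it was low in Egfr (-8.48 against 0.44 to 2.89), Krt19 (-7.97 against -1.63 to 1.16), Larp6 (-7.28 against 4.16 to 9.46), Gfpt2 (-6.17 against 3.64 to 9.26), Snai2 (-2.82 against 0.78 to 1.59) and Trp53 (-0.69 against -0.11 to 0.07). The rise was smaller in Vgll3 (1.75 against 7.82 to 9.71) and Tapbp (0.69 against 2.40 to 3.33), and the fall smaller in Clic6 (-2.52 against -10.96 to -8.36) and Sox13 (-3.96 against -10.92 to -8.91). The parental level of Clic6 was only 11.9 in line 9, which limits the fall possible there. Zeb1 was higher in line 9 alone (2.44 against -0.39 to -0.16). Its list medians stood apart for MHC class I presentation (-0.52 against 1.43 to 2.05) and for TGF-beta, activin and BMP genes (-0.95 against -0.18 to 0.26), and so did the median of chromosome 9 (-0.45 against 0.04 to 0.25).

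Line 7 was not lower in Fosl1 (0.41 against -9.05 to -6.05), fell less in Cdx2 (-4.01 against -10.69 to -9.46) and Sema6b (-2.81 against -5.36 to -4.54), rose less in Pfkfb3 (0.30 against 1.22 to 1.68) and more in Col14a1 (7.45 against 4.64 to 5.62), and had the lowest median of integrins and laminins (-0.79 against -0.04 to 0.37). Line 3 stood apart in Bcl2 (-5.46 against -3.41 to -2.64) and in the median of the IGF axis (1.56 against -0.14 to 0.38). Line 6 fell less in Ocln (-3.70 against -7.71 to -6.90), and line 10 had the highest median of EMT transcription factors (1.03 against -0.45 to 0.00).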

How the results depend on the processing

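Of 743 calls (332 higher, 411 lower), none was called in the opposite direction under any alternative, and the share of calls that were higher stayed between 36.1% and 48.6% (44.7% in the reported fit). The counts were 113 to 1051 (43 to 478 higher, 70 to 573 lower) when 1 line was left out, 406 (163 and 243) with eBayes without a trend and 2204 (1024 and 1180) at an adjusted p below 0.05. They changed by less than 1.5 times with another pseudocount, filter or scaling. With the replicate block over all 21 samples the count was 2005 (935 and 1070), with no replicate block it was 890 (395 and 495) in the 12 samples and 1027 (497 and 530) in all 21, and 31 and 33 of the 121 called named genes were then not called. Of the named genes, 47 lost the call without a trend, 21 without a filter on low values and 12 with a pseudocount of 8. Leaving out 1 line turned the sign of Egfr (-0.80 to 1.48), Fgfr1 (-0.19 to 1.06), Zeb1 (-0.24 to 0.33), Dnmt3a (-0.15 to 0.40) and Gm28437 (-3.55 to 1.40), none of which was called. Of 672 recomputed list medians, 657 moved by less than the spread between lines, the standard deviation of the line medians. That count cannot show that the medians are stable. The fits with no replicate block give the same log2 fold changes as the reported fit, so their medians cannot move. Leaving out 1 line can rarely shift a median by more than a spread taken over the lines themselves. Over members with a mean of at least 100 the medians were -2.60 for epithelial junctions, -5.48 for the gastric-like state, 1.64 for complement and -0.07 for DNA methylation, and epithelial junctions gave -1.46 without a filter and -1.49 with a pseudocount of 8. Means in place of medians were 0.45 for receptor tyrosine kinases, -0.08 for integrins and laminins, 1.10 for the IGF axis, -0.25 for G1 regulators and -0.14 for the BCL2 family. Leaving out 1 line gave -1.57 to -0.86 for immediate-early genes, -2.23 to -1.50 for epithelial junctions and -0.47 to -0.15 for DNA methylation. Genes switched on numbered 0 and switched off 8 with limits of 10 and 100, and 2 and 7 with limits of 5 and 20. The cause of these changes was not tested. Genes at or below 3 reads in 1 state have no measurable level there.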
